A study of Mus musculus with 9 samples.

Results

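The dystrophin-glycoprotein complex was followed through its 8 genes Dmd, Utrn, Dag1, Dtna, Sgca, Sgcb, Sgcd and Sspn, which were chosen by gene symbol from the 45706 genes of the deposited table. RNA had been sequenced from skeletal muscle stem cells (satellite cells) of wild-type C57Bl6 mice 12 to 20 weeks old. The cells were freshly isolated from muscle, or had proliferated for at least 3 days with FGF-2 (2.5 ng/ml) and 20% fetal calf serum in the medium, or had gone on from there to form myotubes during 6 days in 2% horse serum. Each of these 3 stages had 3 libraries from different animals, and no allele or transgene separated the groups. The myotubes were grown in culture without nerve or load, so they are a model of early muscle fibres and not of adult muscle.

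The complex spans the muscle membrane and ties the actin cytoskeleton to the basement membrane. On the inside, dystrophin, or in its place its paralogue utrophin, binds actin and dystroglycan. Dystroglycan, made from Dag1 and cut into an outer and a membrane subunit, binds laminin on the outside through sugar chains, while the sarcoglycans and sarcospan form a subcomplex beside it, and dystrobrevin and the syntrophins bind dystrophin in the cytoplasm. Loss of dystrophin causes Duchenne muscular dystrophy, and loss of a sarcoglycan causes limb-girdle muscular dystrophies. In mouse satellite cells dystrophin has also been described as a polarity factor that works with the kinase Mark2.

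Values are normalized read counts, that is, reads per gene after scaling by the authors to make libraries comparable, rounded to whole numbers. They summed to 20.1 to 26.2 M (M, mega) in freshly isolated, 17.8 to 18.2 M in proliferating and 19.5 to 20.8 M in myotube libraries. Low values fell on a regular spacing, from which 1 read was estimated at 2.18 units in freshly isolated replicate 1 and at 0.747 to 1.05 units in the other 8 libraries. Among the landmark genes, Pax7 and Myh3 followed the labels. Pax7, the factor that defines satellite cells, had 11694 to 15700 in freshly isolated, 2556 to 3330 in proliferating and 1192 to 1645 in myotube libraries. Myh3, embryonic myosin, had 23 to 83, 3055 to 23038 and 296158 to 335321 at the same stages. Mki67, a gene of cycling cells, had 66 to 471, 22495 to 25457 and 7550 to 13203. Its decrease in myotubes against proliferating cells was not called (log2 change -1.30 ± 0.54 SE, limma adjusted p = 0.0671). Myotube libraries thus kept much Mki67, and the part of cycling cells in their values was not tested. Adult fibre markers summed to 2896 to 3736, 2227 to 7219 and 133838 to 175088 at these stages. In freshly isolated libraries most of this sum was Actn3 (2178 to 2708), with Atp2a1 at 239 to 773 and each other marker at 279 or less. Of the other cell types, 6 fibroblast markers were tested. Against freshly isolated cells, proliferating cells had 5 of them called lower and 1 higher, beside 35.7% and 37.6% of all tested genes. Among the lower ones, Dpt, Cxcl14, Dcn and Pi16 passed the filter on low values only through the freshly isolated cells. That filter fixed their direction, so their calls are no test. The fibroblast marker sum was 23 to 34 in proliferating and 8493 to 9608 in freshly isolated libraries. In myotubes this sum was 199 to 501. Leukocyte marker sums were 660 to 681, 61 to 79 and 29 to 31 in freshly isolated, proliferating and myotube libraries, most of it Cd68, with Ptprc at 14 or less. The other sums were 127 to 244, 90 to 123 and 103 to 133 for endothelial markers and 213 to 303, 93 to 98 and 59 to 99 for Schwann cell markers. Pericyte and smooth muscle markers summed to 2357 to 3791, 8646 to 20029 and 60986 to 62186, most of it Acta2, which muscle cells also express. In this list 2 of 6 tested markers were higher and 2 lower in proliferating against freshly isolated cells, where 73.3% of all tested genes were called. Kcnj8, among the lower ones, passed the filter on low values only through the freshly isolated cells. In myotubes against proliferating cells 3 were higher and 1 lower, where 54.1% of all tested genes were called, 28.6% higher and 25.5% lower. Cspg4 had 371 to 414, 1625 to 2123 and 148 to 177 at the 3 stages, Pdgfrb 124 to 236, 67 to 226 and 230 to 376, and Myh11 16 or less in each library. The part of these cells in the results below was not tested, and in bulk RNA fewer cells of a type cannot be told apart from less RNA per cell. A pair of libraries stood apart. Proliferating replicate 1 was low in muscle genes, with Myog, the factor of differentiating myoblasts, at 2179 against 9530 and 8749 in replicates 2 and 3. Freshly isolated replicate 1 was the shallowest library, with an estimated 12.0 M reads against 19.3 to 24.3 M in the others, and had Myog at 1257 against 62 and 218.

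Each gene was measured as 1 sum over its transcripts, which matters most for Dmd because its long and short transcripts start far apart. For that reason the upstream bases of the full-length and the short Dmd start with RefSeq windows are shown. Other annotated Dmd transcripts start elsewhere. Sgca is shown as the sarcoglycan gene of striated muscle. The sequences are the 250 bases before the RefSeq transcript start on GRCm38.p6, written 5′ to 3′ on the strand of the gene. Capitals mark every CANNTG (the E-box bound by MyoD and other factors), CArG box (bound by serum response factor) and MEF2 site, each of which reads the same on both strands.
Dmd full-length start, chrX:82948620-82948869, plus strand: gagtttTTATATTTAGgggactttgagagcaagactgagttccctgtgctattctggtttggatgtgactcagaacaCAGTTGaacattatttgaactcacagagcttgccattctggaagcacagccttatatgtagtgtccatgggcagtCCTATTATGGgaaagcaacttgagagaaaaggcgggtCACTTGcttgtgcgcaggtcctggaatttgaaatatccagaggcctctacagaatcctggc
Dmd short start, chrX:85048045-85048294, plus strand: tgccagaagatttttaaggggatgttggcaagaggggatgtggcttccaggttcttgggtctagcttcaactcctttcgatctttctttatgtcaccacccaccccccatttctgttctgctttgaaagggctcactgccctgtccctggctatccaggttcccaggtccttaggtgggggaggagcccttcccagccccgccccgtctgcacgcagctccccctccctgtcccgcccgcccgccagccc
Sgca, chr11:94976328-94976577, minus strand: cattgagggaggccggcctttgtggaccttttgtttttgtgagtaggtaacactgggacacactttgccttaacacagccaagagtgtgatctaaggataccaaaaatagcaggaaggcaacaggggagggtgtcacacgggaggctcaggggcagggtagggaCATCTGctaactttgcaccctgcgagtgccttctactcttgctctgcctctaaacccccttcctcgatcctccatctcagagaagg
The window of the full-length Dmd start held 1 CArG box, 1 MEF2 site and 2 CANNTG, whose first bases lay at -98, at -244, and at -173 and -61 from the start. The short Dmd start held none of these, and Sgca held 1 CANNTG at -86. Of 32851 RefSeq promoter windows of this length, 66.2% held a CANNTG, 1.47% a CArG box and 2.92% a MEF2 site. RefSeq windows were matched for 7 of the 8 genes, and none of their 10 windows held CAGCTG, which 13% of all windows did.

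Dystrophin RNA was almost lost in proliferating cells and was back in myotubes. Dmd (chromosome X, 82948870 to 85206141, 14 annotated transcripts) had 12628, 17086 and 14324 normalized read counts in freshly isolated cells, 135, 151 and 124 in proliferating cells, and 16933, 15255 and 17934 in myotubes. The proliferating libraries lay far below every library of both other stages, and the freshly isolated and myotube libraries overlapped. Proliferating cells had 106-fold less than freshly isolated cells (136.7 ± 13.6 and 14679 ± 2250, mean ± SD, n = 3 each, log2 change -6.73 ± 0.12 SE, limma adjusted p = 1.61e-10). Only 158 of the 17291 genes tested had a larger decrease in this comparison. Myotubes had 121-fold more than proliferating cells (16707 ± 1354 and 136.7 ± 13.6, log2 change 6.92 ± 0.12, limma adjusted p = 1.17e-09), and 52 genes had a larger increase. Between myotubes and freshly isolated cells Dmd did not pass the threshold (log2 change 0.19, 95% interval -0.08 to 0.47, limma adjusted p = 0.176). That value was -0.24 under upper-quartile scaling and 0.31 without freshly isolated replicate 2, where it was called (limma adjusted p = 0.0373). The low values rested on an estimated 142 to 202 reads per proliferating library, so they did not hang on single reads.

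The annotation lists the long Dmd transcript from position 82948903 with 14910 exon bases, and a transcript of 4438 exon bases from 85048413 that the deposited table pairs with the short dystrophin Dp71, a form made in many tissues. Because the counts are per gene, the long and short forms cannot be told apart at any stage.

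**Figure D1:**
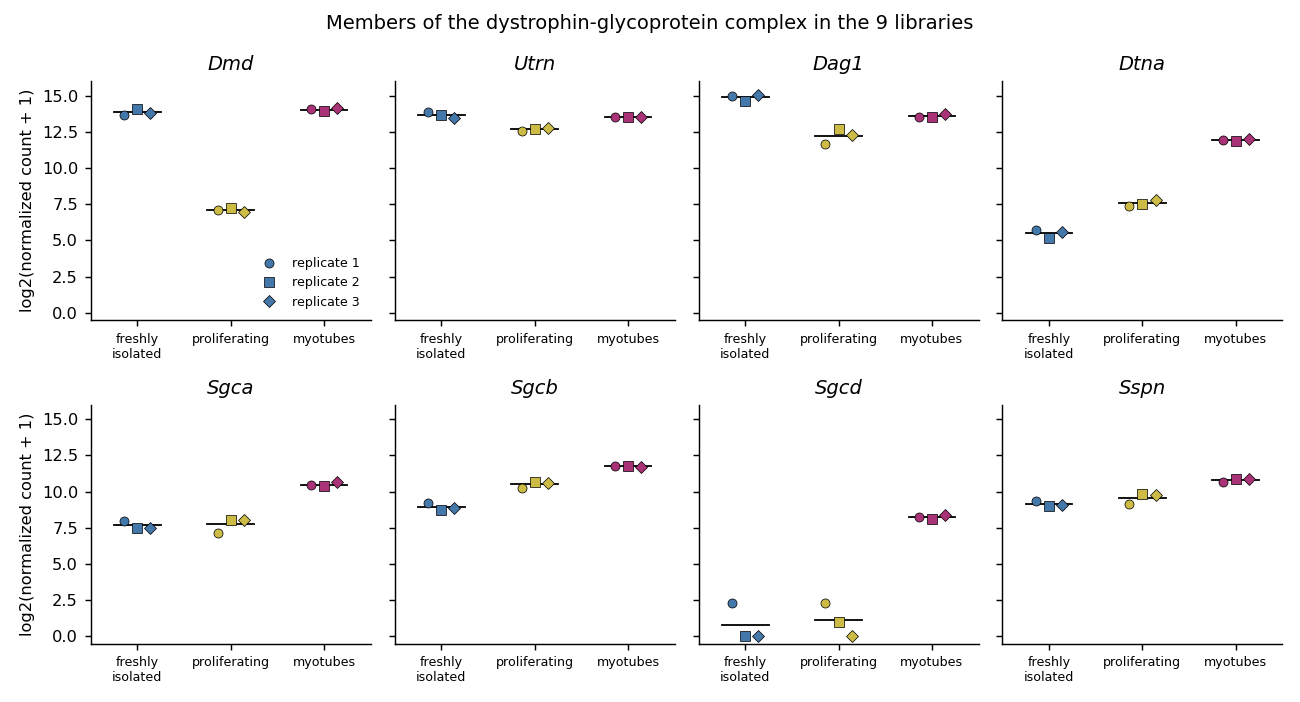
The 9 libraries for each of the 8 genes, on the log2(normalized read count + 1) scale, with a circle, square and diamond for replicates 1, 2 and 3 and a bar for the stage mean. Dmd dips to 124 to 151 normalized read counts in proliferating cells, while Dtna, Sgca, Sgcb, Sgcd and Sspn are highest in myotubes.

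Utrophin varied far less. Utrn (chromosome 10, 12382188 to 12869365), which encodes the paralogue that can stand in for dystrophin at the membrane, had 15049, 12764 and 11415 in freshly isolated cells, 6115, 6513 and 6804 in proliferating cells and 11533, 11930 and 11888 in myotubes. All 3 proliferating libraries lay below the other 6, whose stages overlapped. Proliferating cells had 2.01-fold less than freshly isolated cells (6477 ± 346 and 13076 ± 1837, log2 change -1.01 ± 0.11, limma adjusted p = 1.15e-05) and myotubes 1.82-fold more than proliferating cells (11784 ± 218 and 6477 ± 346, log2 change 0.86 ± 0.11, limma adjusted p = 7.21e-05). Myotubes and freshly isolated cells did not differ past the threshold (log2 change -0.14, 95% interval -0.38 to 0.10, limma adjusted p = 0.246). Upper-quartile scaling, which moved the median of all genes by -0.42 in this comparison, turned that value into -0.58 and a call (limma adjusted p = 0.000422).

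The balance between both genes was compared within each library. The ratio of Dmd to Utrn was 0.839, 1.34 and 1.25 in freshly isolated cells, 0.0221, 0.0232 and 0.0182 in proliferating cells and 1.47, 1.28 and 1.51 in myotubes. These are ratios of gene counts that are not scaled to length, so they cannot be read as a ratio of molecules. Their comparison between stages assumes a like mix of long and short transcripts at each stage, which gene counts cannot show. On the log2 scale the mean ratio was -5.56 ± 0.18 in proliferating and 0.17 ± 0.37 in freshly isolated cells (SD, n = 3 each), a difference of -5.72 (two-sided exact permutation test, p = 0.1, the smallest that 3 against 3 libraries allow). In myotubes it was 0.50 ± 0.13, a difference of 6.06 from proliferating cells (exact p = 0.1) and of 0.34 from freshly isolated cells (exact p = 0.2). The proliferating libraries did not overlap with those of either other stage, and freshly isolated replicate 1 was the one library of the other 6 with less Dmd than Utrn.

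**Figure D2:**
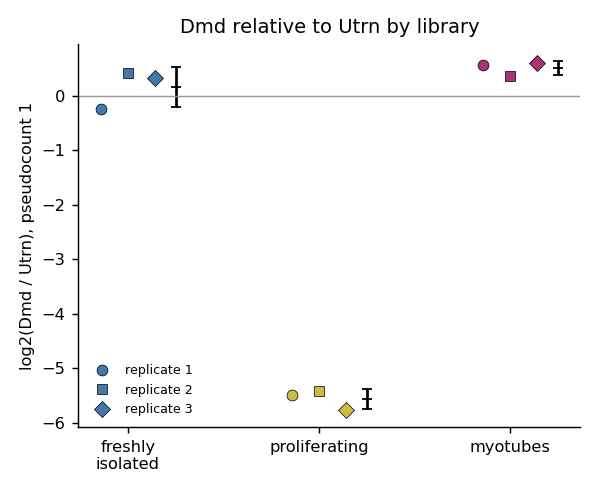
Log2 ratio of Dmd to Utrn normalized read counts in each library, with a pseudocount of 1, by stage, and beside the points the mean ± SD of 3 libraries. The proliferating libraries lie near -5.56, and the other 6 lie close to 0.

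Dystroglycan was highest in freshly isolated cells. Dag1 (chromosome 9, 108204634 to 108263958), the laminin receptor of the complex, had 31638, 25748 and 33544 in freshly isolated cells, 3182, 6711 and 4930 in proliferating cells and 11445, 11449 and 13280 in myotubes. No library of one stage overlapped with another stage. Proliferating cells had 6.38-fold less than freshly isolated cells (4941 ± 1765 and 30310 ± 4064, log2 change -2.67 ± 0.23, limma adjusted p = 2.34e-06). Myotubes had 2.55-fold more than proliferating cells (12058 ± 1058 and 4941 ± 1765, log2 change 1.35 ± 0.23, limma adjusted p = 0.000611). They still had 2.50-fold less than freshly isolated cells (log2 change -1.32 ± 0.23, limma adjusted p = 0.000351), so Dag1 was the one member lower in myotubes than in freshly isolated cells. The fibroblast marker sum above, most of it Col15a1 and Dpt, was also highest in freshly isolated cells. Of its 6 markers, 5 followed the sum, Pi16 with only 13 to 31 in freshly isolated libraries. Pdgfra went the other way, with 4 to 9 in freshly isolated, 13 to 22 in proliferating and 12 to 17 in myotube libraries. Its rise in proliferating cells was called (log2 change 1.47, limma adjusted p = 0.0078). The part of fibroblasts in the Dag1 values was not tested.

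Dystrobrevin rose at each step. Dtna (chromosome 18, 23415135 to 23659715), whose product binds dystrophin and the syntrophins, had 52, 35 and 46 in freshly isolated cells, 165, 185 and 217 in proliferating cells and 3952, 3742 and 4027 in myotubes. The stages did not overlap. It was 4.22-fold higher in proliferating than in freshly isolated cells (189 ± 26.2 and 44.3 ± 8.62, log2 change 2.08 ± 0.17, limma adjusted p = 1.55e-06) and a further 20.7-fold higher in myotubes than in proliferating cells (3907 ± 148 and 189 ± 26.2, log2 change 4.37 ± 0.17, limma adjusted p = 1.84e-07).

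Sgca, Sgcb, Sgcd and Sspn were highest in myotubes, and they differed in what preceded this. Sgcb, beta-sarcoglycan (chromosome 5, 73632749 to 73647790), had 582, 420 and 478 in freshly isolated cells, 1221, 1662 and 1534 in proliferating cells and 3439, 3479 and 3402 in myotubes. It rose at both steps, by 2.98-fold in proliferating against freshly isolated cells (1472 ± 227 and 493 ± 82.1, log2 change 1.58 ± 0.14, limma adjusted p = 3.40e-06) and by 2.35-fold in myotubes against proliferating cells (3440 ± 38.5 and 1472 ± 227, log2 change 1.24 ± 0.14, limma adjusted p = 4.48e-05).

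Sgca, alpha-sarcoglycan (chromosome 11, 94962791 to 94976327), had 253, 182 and 183 in freshly isolated cells, 138, 267 and 258 in proliferating cells and 1380, 1328 and 1609 in myotubes. The first 2 stages overlapped and all myotube libraries lay above them. Myotubes had 6.74-fold more than proliferating cells (1439 ± 150 and 221 ± 72.0, log2 change 2.75 ± 0.25, limma adjusted p = 9.73e-06). Proliferating and freshly isolated cells did not differ past the threshold (log2 change 0.06, 95% interval -0.49 to 0.61, limma adjusted p = 0.842). This value depended on the libraries that stood apart: proliferating replicate 1, with the least Myog of its stage, had the least Sgca, and freshly isolated replicate 1, with the most Myog, had the most. Without both, a choice made after seeing the data that removes these extremes and so can only raise the difference, the log2 change of Sgca was 0.52.

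Sgcd, delta-sarcoglycan (chromosome 11, 46896253 to 47988969), had 4, 0 and 0 in freshly isolated cells, 4, 1 and 0 in proliferating cells and 301, 274 and 334 in myotubes. The values of 4 stand for an estimated 2 reads in freshly isolated replicate 1 and 5 reads in proliferating replicate 1. Sgcd was thus at or near the limit of detection before differentiation, and it passed the filter on low values only through the myotubes. A test of its rise in myotubes would have had its outcome fixed by that filter, so the values are given as a description, with no test and no fold.

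Sspn, which encodes sarcospan, the small membrane protein that joins the sarcoglycans (chromosome 6, 145931641 to 145965223), had 638, 514 and 549 in freshly isolated cells, 553, 907 and 875 in proliferating cells and 1645, 1889 and 1837 in myotubes. Only proliferating replicate 1 fell among the freshly isolated libraries. Myotubes had 2.35-fold more than proliferating cells (1790 ± 129 and 778 ± 196, log2 change 1.23 ± 0.18, limma adjusted p = 0.00023). Proliferating against freshly isolated cells missed the threshold (log2 change 0.43 ± 0.18, limma adjusted p = 0.0520). It was called without proliferating replicate 1 (log2 change 0.66, limma adjusted p = 0.00111), and again when freshly isolated replicate 1 was dropped instead (0.52, limma adjusted p = 0.0251).

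Across the 8 genes, 3 (Dmd, Utrn and Dag1) fell and 2 (Sgcb and Dtna) rose in proliferating against freshly isolated cells, where 73.3% of all tested genes were called, 37.6% higher and 35.7% lower. The share called, 5 of 8, was thus near that of all genes. Without the 2 libraries that stood apart, a choice made after seeing the data, 3 were lower and 4 higher, Sgca and Sspn being added. For both added genes those libraries held the lowest proliferating and the highest freshly isolated value. Leaving them out could thus only raise these differences. In myotubes against proliferating cells the 7 members other than Sgcd rose, with or without those libraries, and Sgcd had to be higher there because it passed the filter only through the myotubes, while 54.1% of all tested genes were called, 28.6% higher and 25.5% lower. In myotubes against freshly isolated cells 4 were higher (Dtna, Sgca, Sgcb and Sspn), Sgcd aside, and 1, Dag1, was lower, with 77.6% of all genes called, 40.2% higher and 37.3% lower. In that comparison Sgca and Sgcb were each 7.02-fold, Sspn 3.16-fold and Dtna 87.3-fold higher in myotubes. The libraries of the compared stages did not overlap for 5, 8 and 6 of the 8 genes in these comparisons, Sgcd included in the last 2, against 74%, 70.9% and 78.7% of all tested genes. The comparisons share libraries, so their counts are not independent of each other.

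**Figure D3:**
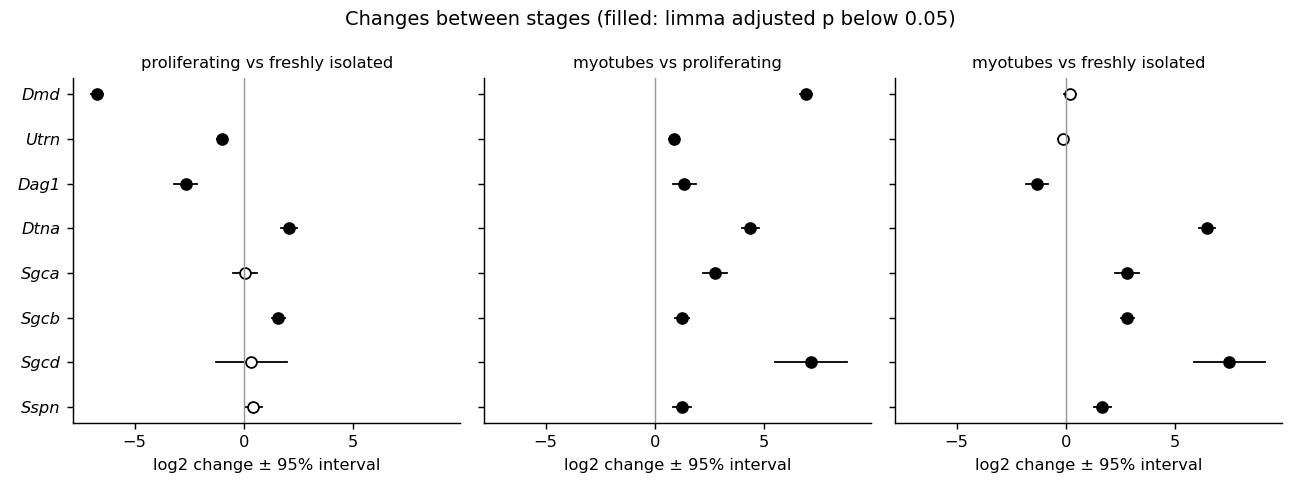
Log2 change with its unadjusted 95% interval for each of the 8 genes in the 3 comparisons, with filled points for limma adjusted p below 0.05. In myotubes against proliferating cells all 8 points lie right of 0, which the filter on low values had fixed for Sgcd, and in myotubes against freshly isolated cells Dmd and Utrn lie at 0.19 and -0.14, both open.

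Levels of different genes were compared per kb of the longest protein-coding transcript, as normalized read counts per kb. In freshly isolated cells Dag1 stood first with 5353 ± 718, followed by Utrn with 1056 ± 148 and Dmd with 985 ± 151, whose libraries overlapped. Sgcb (130 ± 21.7), Sspn (126 ± 14.2) and Sgca (119 ± 23.6) formed a lower tier whose libraries also overlapped, above Dtna (7.04 ± 1.37) and Sgcd (0.54 ± 0.94). In proliferating cells the order was Dag1 (873 ± 312), Utrn (523 ± 27.9), Sgcb (389 ± 59.9), Sspn (173 ± 43.4) and Sgca (128 ± 41.8), the last 2 overlapping, then Dtna (30.0 ± 4.17), Dmd (9.17 ± 0.91) and Sgcd (0.68 ± 0.85). By this length, which for Dmd is that of the long transcript, Dmd stood below Sspn, Sgca and Dtna at this stage alone. The 4438 exon bases of the short transcript would give Dmd a higher level per kb, and the form present is not known. In myotubes the levels drew together. Dag1 (2130 ± 187) was followed by Dmd (1121 ± 90.8), Utrn (952 ± 17.6), Sgcb (909 ± 10.2) and Sgca (835 ± 86.7), with overlap between Sgca and both Sgcb and Utrn, and then by Dtna (621 ± 23.5), Sspn (397 ± 28.5) and Sgcd (124 ± 12.3). Per kb of all merged exons the order of these genes changed where annotated lengths differ most. In myotubes Sgcb (849 ± 9.50) and Sgca (829 ± 86.2) then stood above Dmd (702 ± 56.9) and Utrn (689 ± 12.7), and Dtna (231 ± 8.73) stood below Sspn (358 ± 25.7).

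**Figure D4:**
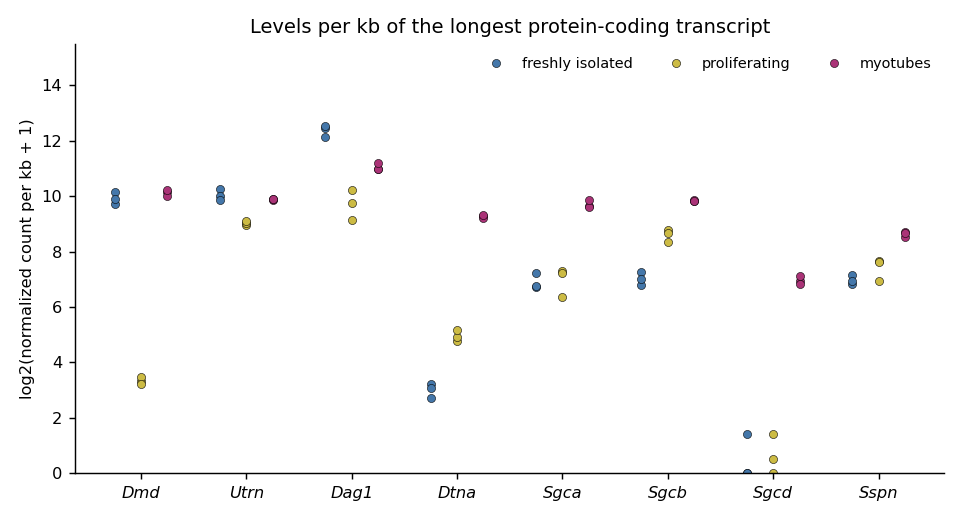
Normalized read counts per kb of the longest protein-coding transcript, on a log2(value + 1) axis, for each gene, with 3 points per stage for the 3 libraries. Dag1 is the highest gene at each stage, and Dmd in proliferating cells (9.17 per kb on average) lies far below every other stage of Dmd, Utrn and Dag1.

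The genes with the profile most like that of each anchor were looked up among 9985 protein-coding genes with a mean of at least 100, by Pearson correlation of log2 values over the 9 libraries. The points fall into 3 stages, so high values are common and are only a description. For Dmd the nearest were Sptb, a beta-spectrin gene (r = 0.996), Itgb5, an integrin beta subunit gene (r = 0.996), and Nat9 (r = 0.996). Their dips were shallower than that of Dmd: Sptb averaged 501 in freshly isolated cells, 70.3 in proliferating cells and 524 in myotubes. For Utrn they were Sptan1, the alpha-spectrin gene of non-erythroid cells (r = 0.993), Lzts3 (r = 0.990) and Fbxo32, an F-box gene of muscle atrophy (r = 0.987). Sptan1 averaged 26064, 11219 and 21526 at the 3 stages in the same order. For Sgca they were Prob1 (r = 0.997), the slow myosin gene Myh7 (r = 0.996) and Trim72, a membrane repair gene (r = 0.994). Trim72 had 320, 231 and 151 in freshly isolated cells, 79, 483 and 421 in proliferating cells and 8711, 7720 and 9545 in myotubes. Proliferating replicate 1 was lowest of its stage, as for Sgca, which a choice by correlation with Sgca over the same libraries favours.

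Other genes of the complex and its close relatives were counted next. Of 12 listed, 9 were tested. In proliferating against freshly isolated cells 3 were higher and 3 lower, and in myotubes against proliferating cells 4 were higher and 3 lower, with 73.3% and 54.1% of all tested genes called. Sgce, the broadly expressed epsilon-sarcoglycan gene, fell where Sgcb rose, with 118 to 170 in proliferating and 290 to 566 in freshly isolated cells (log2 change -1.57 ± 0.24, limma adjusted p = 0.000175). It was 0.87 higher on the log2 scale in myotubes than in proliferating cells (limma adjusted p = 0.0115). In myotubes it had 232 to 280, below all freshly isolated libraries (log2 change -0.71 ± 0.24, limma adjusted p = 0.0207), a call lost without freshly isolated replicate 2 or 3 or myotube replicate 1 or 3 (limma adjusted p between 0.0533 and 0.0803).

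The scaffold genes around dystrophin did not move together. Among the syntrophins, the adaptors that bind dystrophin and dystrobrevin, Sntb1 had 74, 254 and 135 in freshly isolated cells, 380, 1611 and 1275 in proliferating cells and 8138, 7483 and 8095 in myotubes. It rose at both steps, by 2.75 on the log2 scale in proliferating against freshly isolated cells (3.38 without proliferating replicate 1) and by 3.10 in myotubes against proliferating cells (2.46 without that library). Sntb2 had 2428 to 3466 in freshly isolated cells, 626 to 745 in proliferating cells and 367 to 434 in myotubes, and it fell at both steps (log2 changes of -2.02 in proliferating against freshly isolated cells and -0.82 in myotubes against proliferating cells). Dtnb, the second dystrobrevin gene, fell in myotubes against proliferating cells, the opposite of Dtna (135 to 183 and 453 to 662, log2 change -1.69 ± 0.18, limma adjusted p = 2.88e-05). Drp2, a dystrophin-related gene known from Schwann cells, had 2238 to 2530 in proliferating and 18042 to 25554 in freshly isolated cells (log2 change -3.24 ± 0.13, limma adjusted p = 1.10e-08), and it was not called in myotubes against proliferating cells (-0.17, limma adjusted p = 0.279). Schwann cell marker sums were 93 to 98 in proliferating and 213 to 303 in freshly isolated libraries. Counts of different genes are not scaled to length here, and the part of Schwann cells in the Drp2 values was not tested. Cav3, muscle caveolin, had 6696 to 10326 in myotubes against 40 to 195 in proliferating cells (log2 change 6.51 ± 1.11, limma adjusted p = 0.000658, and 5.92 without proliferating replicate 1). In freshly isolated cells Cav3 had 0, 31 and 23, and its rise in proliferating cells (log2 change 3.34) was 1.75 without freshly isolated replicate 1, 4.25 without replicate 2, 4.04 without replicate 3 and 3.93 without proliferating replicate 1, and not called without proliferating replicate 2 or 3 (limma adjusted p = 0.0748 and 0.0518). Nos1, the nitric oxide synthase that syntrophin anchors, had 16 to 21 in myotubes and 45 to 111 in proliferating cells (log2 change -1.95 ± 0.39, limma adjusted p = 0.0017).

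Of 8 genes of matrix ligands, 6 were tested. In proliferating against freshly isolated cells 5 were lower, among them Egflam, whose direction the filter fixed, and 1, Lama5, was higher (log2 change 0.39, limma adjusted p = 0.00562), where 73.3% of all tested genes were called, 37.6% higher and 35.7% lower. Lama2, the laminin chain of the muscle basement membrane and the main ligand of dystroglycan, had 1754 to 2144 in proliferating and 13936 to 17511 in freshly isolated cells (log2 change -3.07 ± 0.11, limma adjusted p = 7.21e-09). Hspg2, perlecan, had 14392 to 16649 and 31067 to 45643 (log2 change -1.31 ± 0.14, limma adjusted p = 1.26e-05), and Agrn, agrin, had 638 to 729 and 950 to 1928 (-0.96 ± 0.22, limma adjusted p = 0.00268) in the same pair of stages. Egflam, pikachurin, had at most 7 in proliferating and 17 to 29 in freshly isolated cells and passed the filter only through the freshly isolated cells. In myotubes against proliferating cells 2 rose, Lama2 (3878 to 4250 in myotubes, log2 change 1.08 ± 0.11, limma adjusted p = 2.51e-05) and Bgn, the proteoglycan biglycan (1.14 ± 0.12, limma adjusted p = 2.08e-05), while Agrn, Lama5 and Hspg2 fell by 1.38, 1.25 and 0.69 on the log2 scale.

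All 17 listed genes for making the laminin-binding sugar chain of dystroglycan, those for the supply of its mannose donor included, were tested. In myotubes against proliferating cells 3 were higher and 2 lower, where 54.1% of all tested genes were called, with a median log2 change of 0.28 beside 0.04 for all genes. Without freshly isolated replicate 1, which enters the shared estimate of spread, Pomgnt1, Pomgnt2 and Rxylt1 were called too (limma adjusted p = 0.0098, 0.0124 and 0.000923). Some of the calls of higher genes were weak. Dolk (0.97 on the log2 scale) lost its call when any 1 of the 6 libraries compared was left out (limma adjusted p between 0.0527 and 0.1). Dpm3 (0.88) lost it without proliferating replicate 1 or 3 (0.132 and 0.141), myotube replicate 1 or 3 (0.156 for each) or freshly isolated replicate 3 (0.0581). Pomt1, an enzyme that adds the first mannose, was among the lower ones (log2 change -0.75, limma adjusted p = 0.000267). In proliferating against freshly isolated cells 8 were higher and 3 lower, beside 37.6% and 35.7% of all tested genes. The higher ones included Rxylt1 (log2 change 1.54) and B4gat1 (1.37), enzymes of the xylose and glucuronic acid steps of the chain. The lower ones included Dpm1 and Gmppb. Dpm1, the catalytic subunit that makes the mannose donor, had 79 to 95 in proliferating and 617 to 724 in freshly isolated cells (log2 change -2.91 ± 0.16, limma adjusted p = 1.15e-07). Gmppb (-0.47) lost it without freshly isolated replicate 1 or 3 (0.0608 and 0.0512), proliferating replicate 1 (0.115) or myotube replicate 1 (0.053).

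Among 8 cytoskeletal and signalling partners, all tested, 6 were lower and 1 higher in proliferating against freshly isolated cells, and 2 were higher and 3 lower in myotubes against proliferating cells. Of all tested genes, 73.3% were called in the first comparison, 35.7% lower, and 54.1% in the second. Flnc, filamin C, which binds the sarcoglycans, had 9743 to 18215 in proliferating and 141244 to 165110 in freshly isolated cells (log2 change -3.44 ± 0.20, limma adjusted p = 1.55e-07). In myotubes it had 15388 to 18573 and was not called against proliferating cells (log2 change 0.30, limma adjusted p = 0.229), except without proliferating replicate 2 (limma adjusted p = 0.0434). The ankyrins Ank3 and Ank2, which hold dystrophin at the membrane, had log2 changes of -2.78 and -2.15 in proliferating against freshly isolated cells. Sync, an intermediate filament protein of the dystrobrevin complex, was the one that rose there (1431 to 1831 in proliferating and 150 to 277 in freshly isolated cells, log2 change 3.04 ± 0.20). Des, desmin, fell by 0.54 on the log2 scale, a call lost without proliferating replicate 1 (limma adjusted p = 0.0606), and rose by 1.78 in myotubes. Synm, which also rose in myotubes (0.95), lost that call when any 1 of the 6 libraries compared was left out (limma adjusted p between 0.0536 and 0.0904). Mark2 had 2291 to 2383 in freshly isolated cells, 1411 to 1470 in proliferating cells and 603 to 710 in myotubes, and it fell at both steps (log2 change -0.71 ± 0.09 in proliferating against freshly isolated cells, limma adjusted p = 4.38e-05, and -1.17 ± 0.09 in myotubes against proliferating cells, limma adjusted p = 3.93e-06). Plec, plectin, fell by 1.05 in myotubes against proliferating cells.

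Genes of the integrin axis, the other laminin receptor of muscle, were counted last. Of 7 genes tested, 5 were higher and 1, Tln2 (log2 change -2.15), was lower in proliferating against freshly isolated cells, where 73.3% of all tested genes were called, 37.6% higher and 35.7% lower. Itga7, which encodes the laminin-binding alpha7 subunit, had 7510, 10311 and 9484 in proliferating and 7948, 5207 and 5888 in freshly isolated cells (log2 change 0.53 ± 0.17, limma adjusted p = 0.0158). That call was lost without freshly isolated replicate 2 or 3 (limma adjusted p = 0.064 and 0.0519) or proliferating replicate 2 or 3 (0.0646 and 0.0523), and the libraries overlapped. Its partner Itgb1 had 13062 to 14952 in proliferating and 9814 to 10951 in freshly isolated cells (log2 change 0.48 ± 0.09, limma adjusted p = 0.000763). In myotubes against proliferating cells Itgb1 (0.85), Vcl (0.47) and Itgb1bp2, a chaperone-like muscle protein that binds the integrin (5.64 ± 0.24), rose, and Tln1 and Tln2 fell. The difference in response between Dmd and the integrin genes was not tested.

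**Figure D5:**
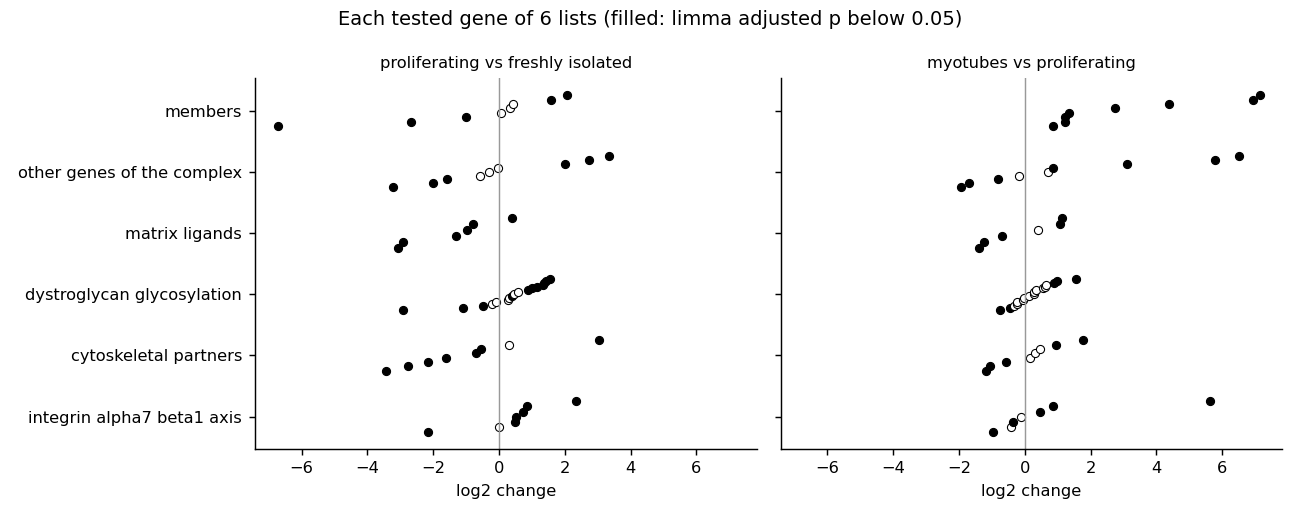
Log2 change of each tested gene in 6 lists for proliferating against freshly isolated cells and for myotubes against proliferating cells, 1 point a gene, filled for limma adjusted p below 0.05. The left panel shows Dmd as the leftmost point at -6.73, and the right panel shows all 8 members right of 0, Sgcd by the filter on low values, while the other lists spread to both sides.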

How the data were processed

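RNA of 3 stages with 3 libraries each was analysed, from 100 ng of total RNA per library, depleted of ribosomal RNA and made into stranded libraries per the labels' protocols. Per the submitters' processing notes, STAR 2.4.0a, the builds mm10 and GRCm38 and featureCounts 1.4.5-p1 of Subread were used. The score values in the deposited table are gene counts that the authors scaled and rounded; the scaling tool and the strand setting are not given in the sources used here. Antisense genes share 90 exon bases with Dtna and 69 with Sspn (0.532% and 1.38% of their exon bases), so those reads are uncertain. Column names beginning with Q match no label word and were assigned to freshly isolated cells by elimination.

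A filter of 10 normalized counts, reached by 3 or more libraries, left 17291 genes. Their log2(value + 1) was fitted with limma (trended variance) to all 9 libraries together, with Benjamini-Hochberg adjustment over all of them and a threshold of 0.05. No count model was fitted to scaled values. The members and lists were chosen with earlier results of these data known. The named genes are the members, and of each other list up to 4 with the largest called change in a comparison and those called against its majority, and for Dmd, Utrn and Sgca the 3 genes most alike. Some listed genes are counted but not reported by name here. A few listed genes named beyond this were chosen after their values were seen. Alternatives changed the pseudocount (0.5 or 5), the filter (none, or 50), the scaling, the trend, the libraries and the replicate block. Positions and lengths are from GENCODE vM21 (45143 of 45706 genes matched), promoters from RefSeq on GRCm38.p6; 3 listed genes carry older symbols in the table. Tools were R 4.3.3, limma 3.58.1, Python 3.11.15, pandas 2.3.3, numpy 2.4.6 and matplotlib 3.10.9. The depth of each library was estimated from the spacing of low values, and intervals cover the spread between libraries of different animals.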

Additional observations from a re-analysis of the deposited data

How the results depend on the processing

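All 19 called changes of the 8 genes kept their direction and their call under each of the alternatives run, 380 values in all, among them leaving out each library in turn; 2 of the 19 are those of Sgcd, whose direction the filter fixed. The 5 changes not called moved. Under upper-quartile scaling Dmd in myotubes against freshly isolated cells was -0.24 and Sgca in proliferating against freshly isolated cells was -0.21, against 0.19 and 0.06 in the model reported; Utrn in myotubes against freshly isolated cells was called there. When 1 library was left out, Sgca ranged from -0.11 to 0.37 and Sgcd from -0.27 to 1.11 in proliferating against freshly isolated cells, and the cause was not tested. Sspn in that comparison was called with a pseudocount of 5 (limma adjusted p = 0.0483), with the filter at 50 (0.0495) and with equal totals (0.00379). It was also called without the 2 libraries that stood apart (log2 change 0.74, limma adjusted p = 5.98e-05). That choice was made after seeing the data and could only raise this difference. Rescaling to equal totals and to the upper quartile moved the median of all genes by 0.29 and -0.26 in proliferating against freshly isolated cells and by up to -0.42 in myotubes against freshly isolated cells; changes smaller than that are relative to the scaling.

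With the replicate number as a block the members called were 5, 8 and 6 in the 3 comparisons, as without it, and no member changed its call. Deviations of same-numbered libraries correlated between -0.034 and 0.027, so no pairing by number was detectable and the block is given here only. The exact p of the Dmd to Utrn ratio under this block cannot go below 0.25. Precision is limited by 3 libraries a stage, and for Sgcd before differentiation by reads.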
